A study of Homo sapiens with 6 samples.

Results

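Wild-type LX-2 cells were the unmutated group of a series of 6 RNA-seq libraries, and the 3 wild-type libraries described here were chosen by their genotype label. LX-2 is an immortalised human hepatic stellate cell line, and the other 3 libraries come from LX-2 cells with a mutation in MPI, which encodes mannose phosphate isomerase. The values of those libraries were not used here. The gene rows and size factors come from a table covering the series, so those libraries may have entered both. All wild-type libraries were labelled WT with no treatment, and the line was kept in Dulbecco's medium to which fetal bovine serum, glutamine and antibiotics had been added. The labels do not say whether the 3 libraries came from separate cultures, and the spread between them may be technical. With 1 group there was nothing to compare by a test, and every level below is a description.

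Hepatic stellate cells are the pericyte-like cells of the liver sinusoid. In healthy liver they are quiescent and store vitamin A as retinyl esters in lipid droplets. After injury they activate into myofibroblast-like cells, which contract, divide and secrete collagen, and they are the main source of scar matrix in liver fibrosis. Activation is driven by transforming growth factor beta and platelet-derived growth factor, and by contact with a stiff matrix. LX-2 is widely used as a culture model of the activated state.

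Levels are given on 2 scales. The normalised read count is the deposited value, a gene's reads divided by 1 size factor per library. It was used to rank genes and to class each as present (mean of at least 100), low (10 to under 100) or near 0 (under 10). The second scale, TPM, divides reads by the merged exon length of the gene and brings each library to the same total over the listed genes. Ranks by mean normalised read count also carry gene length, so other comparisons of levels between genes are on the TPM scale. A gene without a row in the table is not analysed here, and such a gap gives no level. Only 1 listed gene had 0 reads in all 3 libraries. Whether rows were left out for low counts was not tested.

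The table lists 17911 genes, and recovered reads were 33991848, 27037905 and 30215594 in replicates 1, 2 and 3. Of the listed genes 12317 (68.8%) were present, 5255 were low and 339 were near 0. Of the 13725 listed protein-coding genes 11460 were present. Counts of present list members below are to be read beside that share. A mean of at least 1000 was reached by 6658 genes and a mean of at least 10000 by 499. The signal was spread widely, since 1210 genes were needed to hold 50% of it. Replicate 1 stood apart: the mean chi-square per gene was 14.3 against replicate 2 and 18.2 against replicate 3, but 3.80 between replicates 2 and 3, and all 3 pairs exceeded sampling noise. Values are given for each library for the main genes and as a mean, with or without its SD, for others.

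**Figure D1:**
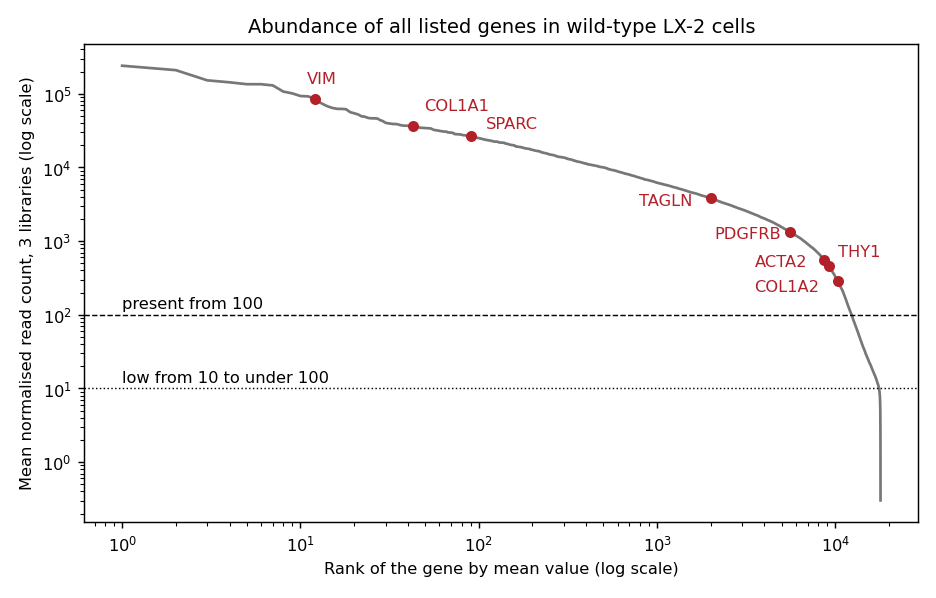
Each listed gene with a read was ranked by its mean normalised read count over the 3 wild-type libraries (log axis) and plotted against that rank (log axis). The red points are the 8 defining stellate markers, all of which lie above the dashed line at 100, from VIM at rank 12 to COL1A2 at rank 10292.

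All 8 defining stellate markers were present, though none is specific to stellate cells and most listed protein-coding genes were present too. Their levels ran over a wide range. VIM, which encodes the mesenchymal intermediate filament vimentin, had 2124, 2097 and 2248 TPM in replicates 1, 2 and 3. SPARC, a secreted collagen-binding glycoprotein, had 743, 685 and 700 TPM. COL1A1, the alpha-1 chain of type I collagen, had 513, 468 and 465 TPM. These 3 genes stood far above the other markers, and no library of one overlapped those of the next.

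TAGLN, an actin-bundling protein of smooth muscle and myofibroblasts, had 105, 114 and 156 TPM, highest in replicate 3. ACTA2, the smooth muscle alpha-actin by which activated stellate cells are usually recognised, had only 22.7, 23.2 and 26.7 TPM. PDGFRB, the receptor for platelet-derived growth factor B, had 24.5, 25.3 and 22.5 TPM. The libraries of ACTA2 and PDGFRB overlapped, and with merged exons as the length no order can be given to these genes. The longest transcript of ACTA2 has 1349 bases against 2976 of merged exons, and that of PDGFRB 5717 against 7137. With the longest transcript as the length, ACTA2 would therefore stand higher relative to PDGFRB. THY1, a surface glycoprotein of fibroblasts, had 10.3, 9.62 and 10.2 TPM, below both in every library. COL1A2, the alpha-2 chain of type I collagen, was lowest with 4.15, 3.11 and 2.83 TPM.

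Positions of these genes are those of GENCODE release 29 on GRCh38. VIM lies on chromosome 10 from 17228259 to 17237593 on the plus strand. SPARC lies on chromosome 5 from 151661096 to 151687165 and COL1A1 on chromosome 17 from 50183289 to 50201632, both on the minus strand. COL1A2 lies on chromosome 7 from 94394561 to 94431232 on the plus strand. Exons of another gene on the opposite strand cover 30.1% of the ACTA2 exons, 24.4% of those of VIM, 11.4% of those of TAGLN and 10.7% of those of THY1. Counting by strand is not described, and reads from those bases could not be told apart. No exon of COL1A1, COL1A2 or PDGFRB is shared.

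Of 24 markers of stellate activation and contraction, 19 were present, 4 were low and DES, the muscle intermediate filament desmin, had no row. The 19 of 23 with a row are near the share over listed protein-coding genes, 11460 of 13725. MYH9, the heavy chain of non-muscle myosin IIA, led the list with 1857 ± 114 TPM (SD, n = 3). S100A6, a calcium-binding protein, had 1229 ± 247 TPM and MYL9, a myosin regulatory light chain, had 645 ± 82.8 TPM. The contractile genes TPM2 and CNN2 had 374 ± 19.6 and 202 ± 6.23 TPM, and TPM1 and CALD1 had 182 ± 8.05 and 124 ± 10.9 TPM. Among the lower members, ACTG2, the enteric smooth muscle actin, had 11.8, 14.9 and 23.7 TPM. CNN1, calponin of smooth muscle, had 12.6 ± 1.90 TPM. LMOD1, a smooth muscle leiomodin, had 4.82, 5.16 and 4.84 TPM. MYH9 and MYL9 lay above ACTA2, ACTG2, CNN1 and LMOD1 in every library.

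The 4 low activation markers were MYH11, FAP, PDGFRA and SPP1. MYH11, the smooth muscle myosin heavy chain, had a mean normalised read count of 92.7, just under the limit of 100. FAP, a surface protease of activated fibroblasts, had 39.5 and PDGFRA, the receptor for platelet-derived growth factor A, had 41.7. SPP1, the secreted phosphoprotein osteopontin, had 12.6, near the lower limit. Per kilobase, PDGFRB lay 45.2 ± 10.8 times above PDGFRA, and at least 33.2 times in every library. With the longest transcript as the length the mean ratio was 38.1 ± 9.11.

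Of 27 markers of quiescence and lipid storage, 12 were present, 6 were low, 3 were near 0 and 6 had no row. The highest was ETS1, a transcription factor with many other roles, at 186 ± 3.34 TPM. GATA4, a transcription factor of the liver mesenchyme, had 37.6, 45.9 and 44.3 TPM, and LHX2, a LIM homeobox factor of stellate cells, had 29.6, 28.7 and 27.3 TPM. PLIN2, the coat protein of lipid droplets in many cells, had 19.6 ± 1.02 TPM. NGFR, the low-affinity neurotrophin receptor, had 12.9 ± 2.66 TPM and HAND2, a basic helix-loop-helix factor of stellate cells, had 8.64, 7.75 and 6.86 TPM.

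Several secreted and storage genes of the list were near 0 or low, although the secreted ECM1 had 128, 111 and 115 TPM. HGF, the hepatocyte growth factor, had normalised read counts of 9.07, 8.15 and 5.31, and RBP4, the serum retinol carrier, had 5.44, 1.16 and 14.9. CYGB, the globin of stellate cells, had a mean of 9.90. These means rest on few reads, 22 for HGF and 21 for RBP4 over all 3 libraries. GFAP, an intermediate filament of glia and of quiescent stellate cells, had 17.7, RELN, the secreted glycoprotein reelin, had 43.8, and PPARG, the adipogenic nuclear receptor, had 26.4. LRAT, PLIN5, DCN, NR1H4 and TCF21 were among those without a row in the table and are not analysed here.

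**Figure D2:**
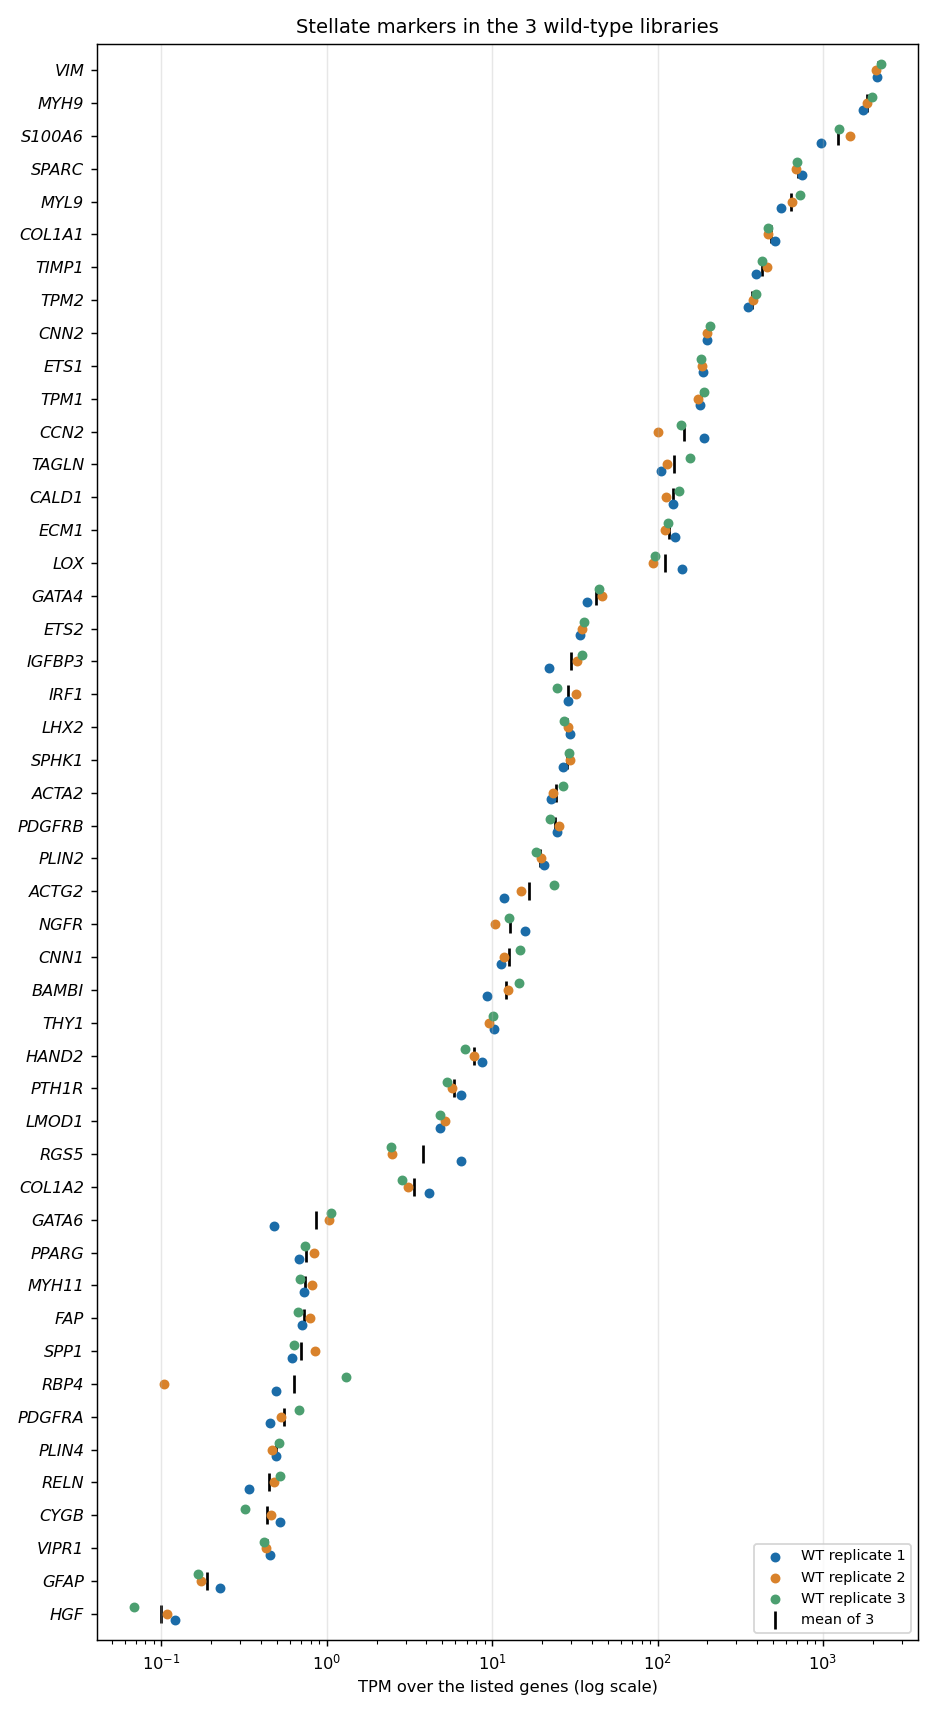
TPM over the listed genes (log axis) for every member of the stellate marker lists with a row, with a point for each wild-type library and a bar at the mean of 3. VIM and MYH9 lie at the top, ACTA2 and PDGFRB between 10 and 100, and GFAP and HGF at the bottom. The transcription factors run from ETS1 at 186 to PPARG at 0.751.

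Of 21 genes that handle retinoids, 12 were present, 2 were near 0 and 7 had no row. RDH11, a retinol dehydrogenase, was highest with 116 ± 5.53 TPM. ALDH1A3, which makes retinoic acid, had 36.9, 70.7 and 78.3 TPM, and replicate 1 lay below the others. CYP26B1, which degrades retinoic acid, had 24.9 ± 1.33 TPM. The retinoic acid receptors RARA, RARB and RARG had 25.4, 23.7 and 21.0 TPM. STRA6, the cellular retinol importer, had a mean normalised read count of 8.59. LRAT, which makes retinyl esters, had no row.

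The gene with the highest mean normalised read count was EEF1A1, the elongation factor that brings transfer RNAs to the ribosome, with 225863, 243913 and 251575. MT-CO1, a mitochondrially encoded subunit of cytochrome c oxidase, followed with 250887, 183577 and 193760. The libraries of these genes overlapped, and MT-CO1 was the higher one in replicate 1 alone. AHNAK, a giant scaffold protein beneath the plasma membrane, came next with a mean of 152234 ± 13187.

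Cytoskeletal genes made up much of the top of the list. ACTG1 and ACTB, the cytoplasmic actins, were at ranks 4 and 8, FLNA, the actin crosslinker filamin A, at rank 6 and MYH9 at rank 7. VIM was at rank 12 and TUBB, a beta-tubulin, at rank 16. CFL1, TMSB10 and TMSB4X, regulators of actin assembly, were at ranks 25, 26 and 29. Of the 50 most abundant genes 9 were in the cytoskeleton lists and 7 were encoded on the mitochondrial genome.

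The rest of the first 30 held metabolic, translation and nuclear genes. GAPDH, PKM and ENO1, enzymes of glycolysis, were at ranks 5, 11 and 13, and 6 glycolysis genes were among the 50. HSPA8, the constitutive heat shock chaperone, was at rank 15 and EEF2, the translocating elongation factor, at rank 27. HNRNPA1, an RNA-binding protein, and KPNB1, a nuclear import receptor, were at ranks 23 and 30. ANXA2, a membrane-binding annexin, was at rank 10, DPYSL3, a cytoskeletal regulator best known in neurons, at rank 24 and CAVIN1, a coat protein of caveolae, at rank 28. MT-ND4, MT-ND5, MT-CO2, MT-CO3, MT-ATP6 and MT-CYB, all mitochondrially encoded, and the nuclear long non-coding RNAs MALAT1 and NEAT1 completed them.

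Secreted genes entered the list just below. FSTL1, a secreted follistatin-like glycoprotein, was at rank 40 and COL1A1 at rank 43. MKI67, the proliferation antigen Ki-67, was at rank 44. The 50 most abundant genes together held 10.8%, 10.3% and 10.6% of the signal in replicates 1, 2 and 3. This share differed little between libraries, with a mean of 10.6% ± 0.240.

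Per kilobase the order changed, and only 28 of the 50 most abundant genes were shared by both scales. MT-CO1 led with 17538 ± 3268 TPM, and 18 of the 50 highest per kilobase lay on the mitochondrial genome. Of these, 13 encode proteins and the rest are transfer RNA genes of 66 to 75 bases, whose short length raises their TPM. Outside the mitochondrial genome, TMSB10, a short actin-sequestering thymosin, led with 12065 ± 442 TPM. ACTG1 followed with 6159 ± 543 and GAPDH with 5835 ± 67.8 TPM. EEF1A1 had 5211 ± 208 TPM, LGALS1, the lectin galectin-1, had 4037 ± 358 and ACTB had 3927 ± 249. MT-ATP8 and MT-ATP6, which overlap in the genome, share 22.2% of the MT-ATP8 bases, so their reads could be split between them. RN7SL2, the RNA of the signal recognition particle, entered the first 21 with 2350, 5594 and 3601 TPM, a wide spread.

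The 13 mitochondrially encoded protein genes held 12.5%, 10.05% and 10.6% of the per-length signal in replicates 1, 2 and 3, and replicate 1 was the highest. It was also highest in MALAT1 and NEAT1, which together took 0.537%, 0.312% and 0.281% of the normalised read count in replicates 1, 2 and 3. A list of 39 ribosomal proteins and elongation factors held 3.08% ± 0.202 of the per-length signal, while all 81 listed RPL and RPS genes, many of them outside that list, held 4.69% ± 0.330. Glycolysis genes held 1.59% ± 0.0258.

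Matrix genes held 1.56% of the per-length signal in all, and fibrillar collagens 0.103% ± 0.00601. Of 11 fibrillar collagen chains 8 were present, 1 was low and 2 had no row. COL1A1 led, and COL5A2, a chain of the type V collagen that nucleates fibrils, was next with 301, 296 and 273 TPM. COL3A1, the type III chain found with type I in most soft tissue, had 137, 144 and 108 TPM, and COL5A1 had 120, 112 and 113 TPM. The libraries of COL3A1 and COL5A1 overlapped, while each library of COL1A1 and of COL5A2 lay above them.

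The chains of type I collagen lay far apart. COL1A1 had normalised read counts of 38507, 35471 and 36085, whereas COL1A2 had 354, 268 and 250. Both chains normally join in 1 triple helix. Per kilobase COL1A1 lay 124, 150.5 and 164 times above COL1A2 in replicates 1, 2 and 3, a mean of 146 ± 20.7, and with the longest transcript as the length the mean was 115 ± 16.2. COL1A2 thus stood at rank 10292 of the listed genes, beside the minor chains COL11A1, with 5.58, 2.54 and 2.47 TPM, and COL27A1, with 4.69, 3.00 and 2.28 TPM, whose libraries overlapped its own. The chains of type V differed far less, with COL5A2 2.52 ± 0.123 times above COL5A1. With the longest transcript as the length that ratio was 2.01 ± 0.0981.

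Among the other collagens 15 of 32 were present, 4 were low and 13 had no row. COL12A1, which coats collagen fibrils, was highest with 321, 257 and 256 TPM. The chains of the beaded-filament collagen VI were near each other, with 145 ± 24.6 TPM for COL6A2, 126 ± 11.3 for COL6A1 and 84.6 ± 5.82 for COL6A3. COL18A1, the basement membrane collagen from which endostatin is cut, had 81.0 ± 3.46 TPM, and COL8A1 had 52.6 ± 10.0. Replicate 1 was the highest library for COL12A1, COL6A1, COL6A2 and COL8A1.

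**Figure D3:**
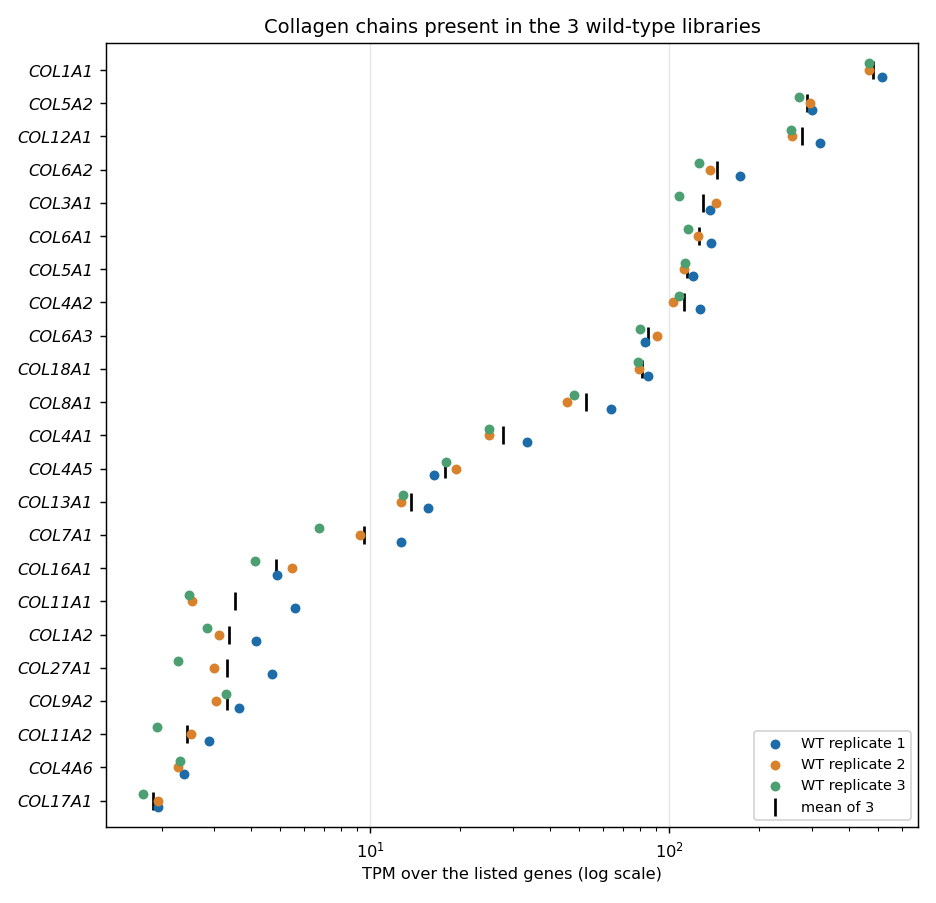
TPM over the listed genes (log axis) for the 23 collagen chains that were present, with a point for each wild-type library and a bar at the mean of 3. COL1A1 lies at the top between 465 and 513 TPM, and COL1A2 is among the lowest 6 chains.

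Type IV collagen forms the network of basement membranes, and its chains COL4A1 and COL4A2 are transcribed in opposite directions from starts that face each other. COL4A2 had 127, 103 and 108 TPM and COL4A1 had 33.4, 24.9 and 25.0 TPM. COL4A2 was therefore 3.79, 4.13 and 4.31 times higher per kilobase, and 5.44 times on average with the longest transcript as the length. The 126 bases between both starts are shown because 1 stretch serves both genes. They are given on the plus strand of GRCh38.p14 from RefSeq, chr13:110307158-110307283, with the only CCAAT match on either strand in capitals.
COL4A1 and COL4A2: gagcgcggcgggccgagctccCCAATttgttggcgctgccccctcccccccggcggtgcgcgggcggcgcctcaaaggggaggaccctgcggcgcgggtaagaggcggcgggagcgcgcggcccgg
A match to CCAAT on either strand was found in 21.1% of 35116 promoters in the 126 bases before the start. A match describes the letters only.

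The genes that modify and crosslink collagen were mostly present, 28 of 32. P4HB, a subunit of collagen prolyl hydroxylase and a disulfide isomerase, had 669 ± 43.6 TPM, and LOXL2, a lysyl oxidase that crosslinks collagen, had 430, 452 and 477 TPM. PPIB, a folding enzyme of the secretory pathway, had 271 ± 9.05 TPM and FKBP10, a collagen chaperone, had 151 ± 10.2. LOX, the classical lysyl oxidase, had 140, 93.8 and 97.0 TPM, with replicate 1 above the others. LOXL2 lay above LOX in every library. SERPINH1, the collagen chaperone HSP47, had 83.3 TPM.

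Of 42 matrix glycoproteins 30 were present. CCN1, a matricellular protein listed under its former symbol CYR61, had 827, 604 and 729 TPM and SPARC 743, 685 and 700, so their libraries overlapped. THBS2, a thrombospondin, had 322 ± 33.8 TPM and FBLN2, the matrix protein fibulin-2, had 271 ± 29.8. FN1, the adhesive glycoprotein fibronectin, had 285, 193 and 230 TPM and IGFBP7, a secreted binding protein, 263 ± 52.0. TGFBI, an adhesion protein induced by transforming growth factor beta, had 192 ± 3.94 TPM. CCN2, connective tissue growth factor, had 191, 100.4 and 139 TPM, highest in replicate 1 and lowest in replicate 2.

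POSTN, the matricellular protein periostin of scar tissue, was present with 6.11, 2.65 and 2.70 TPM, highest in replicate 1. FBLN5 (40.6), MGP (18.5), MFAP4 (21.8) and EMILIN1 (51.4) had low mean normalised read counts. ELN, the core protein of elastic fibres, had no row.

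Of 11 laminin chains 9 were present, and all 8 neighbours in their order were separated in every library. LAMC1, the common gamma chain, had 221, 281 and 297 TPM, above LAMB2 with 149, 125 and 119 and LAMB1 with 115, 99.8 and 89.5. The alpha chain with the highest level was LAMA5 with 55.2 ± 2.66 TPM. LAMA2 was low, with a mean normalised read count of 58.2.

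Of 30 proteoglycans and hyaluronan genes 16 were present, 6 were low and 8 had no row. SRGN, the granule proteoglycan serglycin, led with 409, 477 and 528 TPM, followed by SDC4, a syndecan of focal adhesions, with 357 ± 26.9 and CD44, the hyaluronan receptor, with 310 ± 15.3. AGRN, the basement membrane proteoglycan agrin, had 140 ± 11.7 TPM. The small leucine-rich proteoglycans BGN and LUM were low, with mean normalised read counts of 24.8 and 38.9, and DCN had no row. VCAN, the large interstitial proteoglycan versican, had 4.67, 3.56 and 3.73 TPM.

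Of 40 matrix proteases and inhibitors 31 were present. TIMP2 and TIMP1, inhibitors of matrix metalloproteinases, had 556 ± 7.89 and 426 ± 33.0 TPM, and TIMP3 had 127 ± 20.2. The highest metalloproteinases were MMP14, which is anchored in the membrane, with 64.0 TPM, the collagenase MMP1 with 39.7 and the gelatinase MMP2 with 38.4. TIMP2 was 14.6 ± 1.71 times above MMP2 per kilobase, and 17.1 ± 2.00 times with the longest transcript as the length. MMP3, the stromelysin, was near 0 with a mean normalised read count of 2.46. PLAT and PLAU, the plasminogen activators, had 292 ± 31.2 and 32.6 TPM.

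Cytoskeleton genes held 5.86% of the per-length signal, and 53 of 57 actins and actin-binding proteins were present. ACTG1 was above ACTB in every library, 1.53, 1.56 and 1.61 times, and 1.33 times on average with the longest transcript as the length. The muscle actins were far lower: ACTB was 162 ± 4.20 times above ACTA2 per kilobase and ACTG1 was 391 ± 101 times above ACTG2. With the longest transcript as the length these ratios were 115 ± 2.98 and 281 ± 72.9, so they depend on the length used. ACTC1 of heart was low with a mean normalised read count of 34.0 and ACTA1 of skeletal muscle had no row. Actin genes have near-identical coding sequences, so reads may be split between them.

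PFN1, a profilin that feeds actin filaments, had 1749 ± 83.5 TPM, FLNA 1642 ± 133 and EZR, the membrane linker ezrin, 1230 ± 142. MYH9 was 12.0 ± 1.00 times above MYH10, the heavy chain of non-muscle myosin IIB. Gamma-actin genes of both kinds have a promoter entry, and both are shown because their products differ little in sequence while their levels lay far apart. The windows are the 250 bases before each start in RefSeq, GRCh38.p14, written along the gene's own strand, which is minus for ACTG1 at chr17:81512800-81513049 and plus for ACTG2 at chr2:73892758-73893007. Capitals mark CCAAT, on either strand, and matches to the CArG box, the element bound by serum response factor.
ACTG1: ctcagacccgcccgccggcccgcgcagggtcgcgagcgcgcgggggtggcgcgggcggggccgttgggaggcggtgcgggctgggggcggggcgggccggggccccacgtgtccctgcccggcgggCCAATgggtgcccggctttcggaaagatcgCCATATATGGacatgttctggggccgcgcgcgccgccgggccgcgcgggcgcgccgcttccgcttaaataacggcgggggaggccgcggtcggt
ACTG2: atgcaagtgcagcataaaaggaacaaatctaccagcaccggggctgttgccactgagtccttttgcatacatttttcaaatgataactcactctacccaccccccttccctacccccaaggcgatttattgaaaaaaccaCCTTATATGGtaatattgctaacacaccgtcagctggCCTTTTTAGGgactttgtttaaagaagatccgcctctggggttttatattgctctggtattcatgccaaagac
ACTG1 held 1 CCAAT match and 1 CArG match, and ACTG2 held 2 CArG matches. A CArG match was found in 1.16% and a CCAAT match in 32.0% of 35116 promoters of that length. A match describes the letters of the window only.

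Of 25 intermediate filament genes 12 were present. VIM lay above all others of the list. KRT18 and KRT8, the keratins of simple epithelium, had 367, 631 and 621 TPM and 175, 307 and 299 TPM. Both were lower in replicate 1 than in the other libraries. LMNA, the nuclear lamin A/C, had 359, 519 and 521 TPM, also lowest in replicate 1. Its libraries overlapped those of KRT18. Among 20 microtubule genes 18 were present, led by TUBB with 2398 ± 93.8 TPM, TUBB4B with 1329 ± 48.0 and TUBA1B with 1020 ± 46.1.

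Of 26 integrins 16 were present. ITGB1, the beta chain shared by most matrix-binding integrins, had 668, 629 and 618 TPM. ITGA3 and ITGA5, alpha chains for laminin and fibronectin, had 237 ± 4.16 and 143 ± 8.16 TPM. ITGA11 and ITGA1, which bind collagen, had 4.87 and 6.96 TPM, while ITGA2, another collagen-binding chain, had 36.4 ± 6.62. ITGAV, the alpha chain of receptors that activate latent transforming growth factor beta, had 65.3 ± 10.4 TPM. ITGA8, an alpha chain of stellate cells, had no row.

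Of 50 receptor tyrosine kinases 30 were present and 11 were low. AXL, the receptor for GAS6, led with 648, 676 and 721 TPM, 28.4 ± 3.17 times above PDGFRB per kilobase. With the longest transcript as the length that ratio was 24.8 ± 2.76. EPHA2, an ephrin receptor, had 174 ± 2.33 TPM and MET, the receptor for HGF, had 109 ± 2.47. DDR2, the collagen receptor kinase, had 86.5 ± 5.01 TPM and EGFR, the receptor for epidermal growth factor, 74.8 ± 5.72. PDGFRB stood well below them, and its libraries overlapped those of TIE1. KDR, FLT4 and CSF1R, receptors of endothelial cells and macrophages, were low.

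Of 15 receptors for transforming growth factor beta and bone morphogenetic proteins 11 were present. ENG, the accessory receptor endoglin, had 93.1, 106 and 108 TPM. TGFBR2 had 104, 99.0 and 88.8 TPM and TGFBR1 had 93.2, 95.4 and 84.8 TPM. The libraries of all these receptors overlapped. BMPR2 had 67.9 ± 2.19 TPM, and BMPR1B had no row.

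Of 48 receptors for cytokines, tumour necrosis factor ligands and Toll-like ligands 33 were present. TNFRSF12A, the receptor for TWEAK, had 275 ± 7.96 TPM and IL6ST, the signal chain gp130, had 269, 243 and 234. OSMR, which pairs with IL6ST for oncostatin M, had 147 ± 10.6 TPM, while IL6R, the specific chain for interleukin 6, was low with a mean normalised read count of 89.7. TLR4, the endotoxin receptor, had 4.90 TPM, whereas TLR1 and TLR2 were low with mean normalised read counts of 10.4 and 10.5.

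G protein coupled receptors had the smallest share of present members among the receptor lists, 18 of 58. F2R, the thrombin receptor, had 246, 214 and 188 TPM, and GPRC5A, an orphan receptor, had 131, 168 and 181. OXTR, the oxytocin receptor, had 89.8 ± 9.50 TPM and LPAR1, a lysophosphatidic acid receptor, 60.5 ± 4.89. Receptors for vasoactive peptides known from stellate contraction were lower. AGTR1, for angiotensin II, had a mean normalised read count of 89.1 and EDNRA, for endothelin, had 35.2. EDNRB had no row.

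Of 27 Wnt, Notch and Hedgehog receptors and ligands 20 were present. NOTCH2 had 171 ± 5.71 TPM, above NOTCH1 with 21.7 ± 0.542 and NOTCH3 with 11.2. FZD2, a Wnt receptor, had 109 ± 2.90 TPM. SMO, the Hedgehog signal transducer, had 29.8 ± 3.65 TPM and PTCH1, its inhibitory receptor, 4.13.

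Of 74 growth factors and their secreted antagonists 45 were present. DKK1, an antagonist of Wnt signals, had 722, 887 and 965 TPM, and FSTL1 had 654, 462 and 520. SFRP1, a decoy for Wnt ligands, had 432 ± 98.3 TPM. IGFBP4, IGFBP5 and IGFBP6, binding proteins for insulin-like growth factors, had 326, 303 and 277 TPM. IGFBP6 was lowest and FSTL1 and SFRP1 highest in replicate 1. GREM1, an antagonist of bone morphogenetic proteins, had 163 ± 15.1 TPM.

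TGFB1 had 140 TPM, above TGFB2 with 34.1, and TGFB3 was low. Among ligands for PDGFRB and PDGFRA, PDGFC had 114 TPM, PDGFB 26.5 and PDGFA 20.2, and PDGFD was low. VEGFB and VEGFC, vascular growth factors, had 180 ± 5.93 and 97.7 TPM, and FGF2 had 99.9. IGF1 had no row.

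Of 47 cytokines and chemokines 17 were present. MIF, a macrophage inhibitory cytokine, had 239 ± 8.25 TPM, but 62.0% of its exon bases are shared with other genes. CXCL12, the ligand for CXCR4, had 156, 234 and 236 TPM, with replicate 1 below the others. CXCL8, CXCL1 and IL1B, inflammatory mediators, had 44.4 ± 12.1, 40.5 ± 8.54 and 37.9 ± 9.62 TPM, and each was lowest in replicate 1. CCL2, a monocyte attractant, had 8.90 TPM and IL6 was low with a mean normalised read count of 58.8. TNF had no row.

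Among 62 mesenchymal and stellate transcription factors 40 were present. NR2F2, an orphan nuclear receptor of mesenchyme and veins, led with 494, 537 and 551 TPM, above its paralogue NR2F1 with 136, 95.8 and 96.3. YAP1, the effector of the Hippo pathway, had 185 ± 5.87 TPM and TEAD1, the factor through which it binds DNA, 128 ± 1.27. GATA2, TWIST2 and TBX3 had 77.8 ± 11.6, 65.0 ± 8.76 and 64.8 ± 5.41 TPM, and their libraries overlapped. SRF and its coactivator MRTFA, listed under its former symbol MKL1, had 52.3 and 41.2 TPM, and MYOCD, the muscle coactivator myocardin, 2.47. PRRX1 and SNAI1, mesenchymal factors, were low, and SOX10, of neural crest, had no row.

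Of 83 signal-driven factors 76 were present. YBX1, a nucleic-acid-binding protein, had 2351 ± 82.8 TPM. FOSL1, an AP-1 subunit, had 682, 755 and 844 TPM and JUN, its partner, 274 ± 6.63, while FOS and FOSB were low with mean normalised read counts of 64.1 and 82.2. FOSL1 was at least 232 times above FOS per kilobase in every library. With the longest transcript as the length the mean ratio was 228 ± 46.8. HMGA1, an architectural chromatin protein, had 708 ± 45.5 TPM and HIF1A, the oxygen-regulated factor, 478 ± 47.4. SMAD3, the mediator of transforming growth factor beta, had 179 TPM, above SMAD2 with 14.6. The merged exons of SMAD2 span 36366 bases, a length that lowers its TPM, so this gap depends on the length used.

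Of 44 nuclear receptors 27 were present. After NR2F2, NR3C1, the glucocorticoid receptor, had 114, 147 and 139 TPM and PPARD had 76.8 ± 5.98. HNF4A and NR1H4, of hepatocytes, had no row.

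Of 39 HOX genes, which set position along the body axis, 23 were present. The B cluster held 8 of 10 present members and a summed level of 542, 535 and 535 TPM, the C cluster 8 of 9 with a sum of 125 ± 6.07, the D cluster 4 of 9 with 62.9 ± 1.45 and the A cluster 3 of 11 with 50.4 ± 4.48. The sum of the B cluster lay above every other in all libraries. HOXB2 and HOXB7 led with 122 TPM each, and their libraries overlapped. With the longest transcript as the length, HOXB2 was 1.34 ± 0.0905 times as high as HOXB7. HOXB13, from the 5' end of that cluster, had 27.4 ± 1.55 TPM.

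Markers of other liver cells were mostly low or without a row. A missing row gives no level, and each summed level below covers only members with a row. Of members with a row, 2 of 5 hepatocyte, 1 of 7 endothelial and 1 of 7 macrophage markers were present. So were 4 of 6 epithelial, 3 of 8 neural and 6 of 10 portal fibroblast markers. Of 24 hepatocyte markers 2 were present and 19 had no row, among them ALB, APOA1, APOB, TTR, HNF4A and CYP3A4. The list summed to 31.3 to 34.4 TPM over the libraries. The present ones were CPS1, of the urea cycle, with 24.3 ± 1.35 TPM and SERPINA1, alpha-1-antitrypsin, with 4.30 ± 0.315.

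Of 15 endothelial markers 1 was present, TIE1 with 24.6, 18.6 and 18.0 TPM, and PECAM1, VWF and KDR were low. The list summed to 24.2 to 32.2 TPM. Of 19 macrophage and leukocyte markers 1 was present, CD14 with 29.2 ± 2.61 TPM, while PTPRC and CSF1R were low and CD163, MARCO and TYROBP had no row. That list summed to 33.5 to 39.6 TPM. CD68 was low with a mean normalised read count of 61.0, but 85.8% of its exon bases are shared with other genes.

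Of 15 cholangiocyte and epithelial markers 4 were present and the list summed to 73.9 to 82.8 TPM. SOX9, a factor of bile ducts that activated stellate cells also express, had 58.3 ± 3.75 TPM, KRT7 7.21 ± 1.07, MUC1 5.97 and CLDN4 4.06. EPCAM, CDH1 and CFTR had no row and KRT19 was low. Of 10 neural markers 3 were present, NGFR and NCAM1 among them, and the list summed to 35.3 to 43.3 TPM. Of 15 portal fibroblast and mesothelial markers 6 were present. That list summed to 950.3 to 1418 TPM, most of it from KRT18, FBLN2 and KRT8, and was lowest in replicate 1. KRT18 and KRT8 are also keratins of simple epithelium, with means of 540 and 261 TPM. They were counted in this list only and are not in the epithelial sum, so the size of neither sum separates these cell types. MSLN was low with a mean normalised read count of 44.2, and ELN, ENTPD2 and UPK3B had no row. Whether any of these levels comes from a minority of cells cannot be told in bulk RNA, where fewer cells of a type and less RNA per cell look alike.

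**Figure D4:**
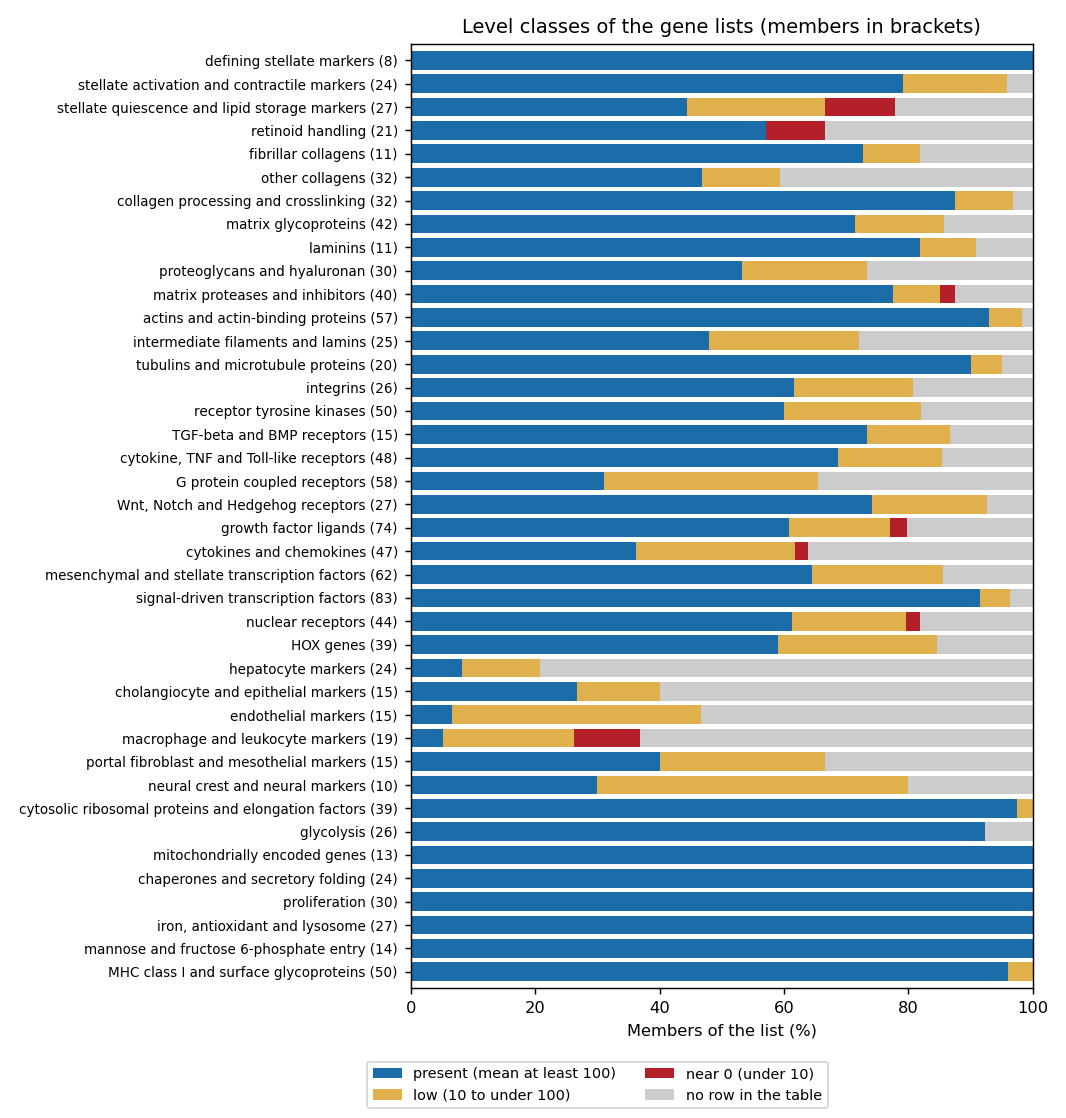
The share of members of each of the 40 gene lists (percent) that were present, low, near 0 or without a row, by mean normalised read count over the 3 wild-type libraries. The proliferation, chaperone and mitochondrial lists are wholly present, while hepatocyte, endothelial and macrophage lists are mostly low or without a row.

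All 30 proliferation genes were present. PCNA, the DNA polymerase clamp, had 1038, 1123 and 1086 TPM, and TOP2A, the topoisomerase of dividing cells, had 829, 762 and 774. CCNB1, the mitotic cyclin, had 640 ± 33.0 TPM, MKI67 360 ± 32.6 and CCND1, the G1 cyclin, 340 ± 25.2. The cell-cycle inhibitors CDKN1B, CDKN2A and CDKN1A had 228, 117 and 59.3 TPM.

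All 14 genes of mannose and fructose 6-phosphate entry were present. MPI, the gene mutated in the other libraries, had 18.6, 18.3 and 17.5 TPM here and PMM2, the next enzyme of mannose activation, a mean of 10.7. HK1 and HK2, the hexokinases that feed both pathways, had 222 ± 15.6 and 63.8 ± 5.83 TPM. GPI, which converts glucose 6-phosphate to fructose 6-phosphate, had 110 ± 2.39 TPM.

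Other abundant housekeeping genes were FTL and FTH1, the ferritin chains, with 2564 ± 457 and 1890 ± 216 TPM, of which FTH1 shares 62.4% of its exon bases with a neighbour. HSPA8 had 1714 ± 119 TPM and CALR, the chaperone calreticulin, 1114 ± 78.3. At the surface, B2M, the light chain of MHC class I, had 687 ± 49.5 TPM and CAV1, the main coat protein of caveolae, 611. NT5E, the ectoenzyme CD73, had 261 TPM and CDH2, N-cadherin, 151. VCAM1 was just under the limit with a mean normalised read count of 98.0.

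Spread between libraries was small for most genes. Over the 12317 present genes the median coefficient of variation was 6.25%, against 3.02% from counting alone, and it was under 10% in 9370 genes. Without replicate 1 the median was 3.43%. That median rests on fewer libraries, and a spread from fewer values tends to come out smaller. The 3.02% from counting makes no allowance for this. Over genes with a mean of 10000 or more the median was 5.96%, although counting alone gives 0.835%. Between libraries Pearson's r of log2 values across genes was 0.992, 0.992 and 0.995, and genes are not independent replicates.

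Replicate 1 carried most of the larger deviations. In it 207 present genes were over 1.5 times above the mean of the others and 69 as far below, against 6 and 62 in replicate 2 and 8 and 81 in replicate 3. The 10 most variable present genes were ASMTL-AS1, PRSS53, CLSTN2, YJEFN3, HSF4, HDAC10, MEG9, MIR503HG, CES1 and RGS5, and all 10 were highest in replicate 1. ASMTL-AS1, an antisense RNA, had normalised read counts of 230.5, 71.0 and 59.5, and RGS5, a pericyte regulator of G protein signals, had 337, 130.4 and 133. For both genes replicate 1 lay above the others, which were close to each other.

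**Figure D5:**
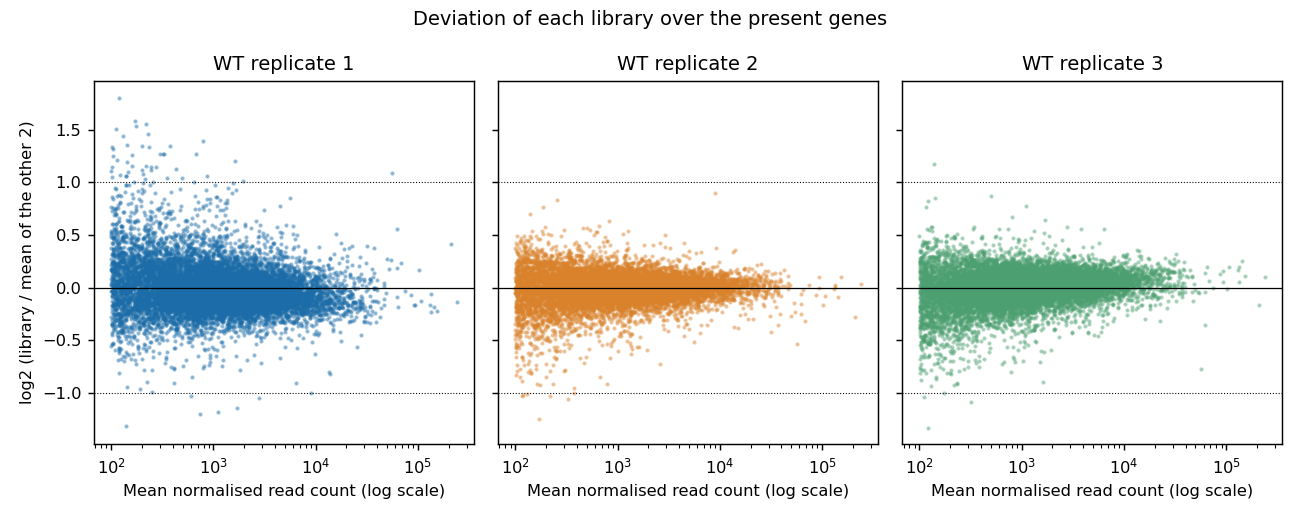
The log2 ratio of each wild-type library to the mean of the other libraries, plotted against the mean normalised read count (log axis) for the 12317 present genes, with dotted lines at a 2-fold difference in either direction. Replicate 1 holds 47 genes above the upper line, replicates 2 and 3 hold 0 and 1.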

How the data were processed

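RNA-seq values of the 3 wild-type LX-2 libraries came from a table covering the series, and the 3 columns of the other group were not used. Per the labels' protocols, RNA was extracted with TRIzol, selected for poly(A), reverse transcribed by random priming and sequenced from both ends on an Illumina HiSeq. Build GRCh38 and the tools DESeq2, featureCounts, Subread 1.5.2, STAR 2.5.2b and Trimmomatic 0.36 appear, without roles, per the submitters' processing notes. Which annotation was counted, whether by strand, and what was done with multi-mapping reads are points not given in the sources used here.

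The authors deposited each library's values as a signal whose unit is not named. With a tolerance of 0.01 of a read, 100% of them were whole multiples of 1 step per library, as gene counts divided by a size factor give. The size factors came to 1.10, 0.859 and 0.942, and 3 reads correspond to values of 2.72 to 3.49. These limits cover counting error only. Because libraries were scaled to each other, total RNA per cell cannot be read. The log2 fold changes and p-values that the authors deposited were not used.

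Merged exon lengths, gene types and positions came from GENCODE release 29. It was chosen here, matched 17828 of 17911 gene IDs and lacks 83. The 22 symbols stored as dates were restored through the ID. TPM was computed over listed genes with a length. Promoter sequences came from the RefSeq table on GRCh38.p14. Python 3.11.15, pandas 2.3.3, numpy 2.4.6, R 4.3.3 and edgeR 4.0.16 (TMM factors only), with matplotlib 3.10.9 for figures, were used, and the recovery of reads and TPM was tested on simulated data.

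The 40 gene lists (1182 symbols, of which 797 were present, 166 low, 10 near 0 and 209 without a row) and the members were chosen with earlier results of these data known. Genes were named by rule: the 30 highest means, the 20 highest per kilobase, the defining stellate markers, the 8 highest members of each list with its low or missing defining members, and the 10 most variable present genes. Further list members were named after their values were seen. A few genes that the rule names are not reported here. Ranks and orders follow the mean and may be of genes whose libraries overlap; a gene was said to lie above another in every library only where this held in each. Alternatives were other scalings, the median, each library left out, a filter at a mean of 10, other lengths and other limits for presence.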

Additional observations from a re-analysis of the deposited data

How the results depend on the processing

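Counts of genes past a mean of 100 or 1000, the number of genes holding 50% of the signal, the share of the 50 most abundant genes and the overlap of both rankings stayed within 1.5 times, or within the spread between libraries, under other scalings, the median, the filter at a mean of 10 and each library left out. Without mitochondrial genes the matrix lists held 1.80% and the cytoskeleton lists 6.75% of the per-length signal, since the total is smaller. The length used moved 29 of 40 list shares by more than the spread between libraries: with the longest transcript, ribosomal proteins and elongation factors held 3.82%, glycolysis genes 2.10% and mitochondrially encoded genes 8.12%. The median coefficient of variation of present genes was 5.90% with reads scaled to equal library totals and 6.08% with TMM factors. It was 6.24% when presence was set by the median. With each library left out it ran from 3.43% to 6.54%, lowest without replicate 1, and those values rest on fewer libraries. With the longest transcript as length, an alternative chosen after seeing the data for this ratio, COL1A1 lay 114.6 times above COL1A2. Limits for presence bore most on low lists: G protein coupled receptors had 33 members at or above 1 TPM and 11 at or above a mean of 200, against 18. Endothelial markers had 2 present members without replicate 2, 3 from a mean of 50 and 4 from 1 TPM, against 1. All 8 stellate markers were present under each limit tried. Levels near 10 rest on about 10 reads per library, so depth limits any order among low genes. No paired analysis was possible because 1 group was described.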

Other observations

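Long non-coding RNAs beyond the most abundant pair were also measured. Of 924 listed lincRNAs 188 were present, and of 1297 antisense RNAs 210. After MALAT1 and NEAT1 the highest lincRNA by mean normalised read count was NORAD, a cytoplasmic RNA that binds PUMILIO proteins, with 18900, 22237 and 20445 in replicates 1, 2 and 3. MEG3, a maternally expressed imprinted RNA, had 7925, 4332 and 4459, and MIR503HG had 1349, 497 and 530.0. Replicate 1 was the highest library for MEG3 and MIR503HG, and NORAD was lowest there. The highest antisense RNA was FGD5-AS1 with 9213, 9528 and 9306, close in all libraries.

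Some low values stood beside heavily shared exons. EEF1G, a subunit of the elongation factor complex, had a mean normalised read count of 42.7, while 99.9% of its exon bases are shared with the overlapping gene AP002990.1 on the same strand. How the counting treated those bases was not tested. Processed pseudogenes can take reads of their parent genes: 47 of 500 were present, and RPS2P5, a copy of RPS2, had normalised read counts of 2524, 3339 and 3337.

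The least variable gene with a mean of at least 1000 was SPECC1L, with 2022, 2027 and 2024. Its coefficient of variation of 0.127% lay below the 2.27% that counting alone gives, and many genes were searched to find it.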
